A study of Mus musculus with 6 samples.

Results

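Protein ubiquitination is a relay. An E1 enzyme activates ubiquitin, an E2 conjugating enzyme carries it, and an E3 ligase brings the loaded E2 to a substrate, while deubiquitinases take ubiquitin off again. The Ube2 genes encode the E2 enzymes and their inactive variants, the Usp genes encode the largest family of deubiquitinases, the ubiquitin-specific proteases, and Nedd4 and Nedd4l are ligases of the HECT class, which take ubiquitin onto a cysteine of their own before passing it on. The system is widely used in male germ cells, where Ube2b, a mouse relative of yeast RAD6, is needed for fertility.

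The genes described here are those whose probe sets carry a single annotated symbol that starts with Ube2 or with Usp and a digit, or that is Nedd4 or Nedd4l. This gave 189 probe sets for 82 genes of the 15964 genes with such a probe set, namely 33 Ube2 genes, 47 Usp genes and the 2 ligases. Probe sets with several symbols were left out, which removed 4 that name a gene of these families, among them the only one for Ube2l3. Beside the 2 ligases, 3 of the 82 names encode no protein of the E2 or USP families. Inactive variants such as Ube2v1 and Ube2v2 are counted with their family, and the activity of the other members was not examined. Ube2d-ps is a pseudogene, Usp6nl encodes a GTPase-activating protein for RAB proteins, and Ube2cbp, an E2-binding protein gene, is now called Ube3d.

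The samples were 6 single-colour arrays of RNA labelled as from spermatogonia, which divide by mitosis and found the male germ line, of mice aged 1 week on a mixed 129sv and C57BL/6 background. The wild type (WT) was compared with a Zfp145 knockout (Null), and Zfp145 is the gene now named Zbtb16, which encodes the transcriptional repressor PLZF. Each genotype was hybridised once to U74Av2, once to U74Bv2 and once to U74Cv2, 3 chips with separate probe sets. No group therefore had a replicate, no test was possible, no p-value is given, and the number of arrays limits the precision. The labels do not name the disrupted part of the gene, the number of animals or whether RNA was pooled, nor whether 1 RNA extract served all chips of a genotype.

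Intensities are given as deposited, and ratios are log2 of Null over WT within a chip after a small scaling. A floor was set at the 40th percentile of each chip, at 98.3 on U74Av2, 165.2 on U74Bv2 and 124.1 on U74Cv2, and a probe set with 1 array at the floor gives only a bound. A gene is represented by the probe set that ranks highest in level on its own chip, and its other probe sets are the only repeated measurement. Probe sets for one and the same gene had a spread that ran from 0.15 to 0.35 on the log2 scale on U74Av2, from 0.24 to 0.35 on U74Bv2 and from 0.31 to 0.57 on U74Cv2, larger at low level. It holds measurement error and unequal change of transcript forms, but no variation among animals.

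The targeted gene Zbtb16 read 770.2 in WT and 158.1 in Null on U74Av2 and 1156.8 and 510.8 on U74Cv2. Its other probe set, on U74Av2, lay at the floor on both arrays. Its level checks the labels only in part, since the labels do not say where the probes lie relative to the disruption. All 14 spermatogonial marker genes found on the chips passed the floor, and their intensities summed to 30909.6 in WT and 32190.0 in Null, with Zbtb16 included. Their ratios differed in sign, with 9 above 0 and 5 below, from -1.32 for Sall4 to 1.09 for Ccnd2. The value for Sall4 came from U74Cv2, and its other probe sets went the other way, at 0.27 on U74Av2 and 0.63 on U74Bv2. Markers of other testis cells were measured as well. All 11 Sertoli cell markers were above the floor and summed to 44156.6 in WT and 39396.7 in Null, with 9 of the 11 ratios below 0. Over all genes 48.5% of the ratios were above 0. Clu made up 16758.0 and 14551.7 of these sums and Aard 13733.2 and 12075.0. Rhox5 and Tsx were at least 2-fold lower, at -1.04 and -1.02, where 1.64% of all genes were. Dhh stood at -0.20, with -0.15 on the same chip and 0.57 and 0.35 on U74Cv2. Over 6 macrophage markers the sums were 19430.7 and 15387.2, with 5 of 6 below 0. Laptm5 alone made up 13972.2 and 10423.0 of these sums, and its other probe sets gave -0.01 and -0.19. Over 5 peritubular myoid markers the sums were 15452.2 and 13047.4, with 2 of the 4 above the floor below 0. Mylk alone made up 10125.1 and 7879.2 of these. Over 6 Leydig cell markers the sums were 1866.4 and 1611.5, with 4 of 5 below 0. Hsd17b3 went the other way by the largest ratio of the list, 1.20, from 138.4 and 320.3. Star stood at -0.17, and its other measured probe sets gave -0.22 and 0.27. The 4 meiotic markers summed to 28320.3 and 23515.7, with 3 ratios below 0, all from U74Cv2. Stag3 alone made up 18598.0 and 15959.3 of these sums, and its probe set on U74Av2 gave 0.13. Sycp1, on U74Av2, gave 0.11, and the other probe sets of Sycp3 and Syce1 were at the floor on both arrays. The 4 spermatid markers summed to 1994.8 and 2518.2. Acr, Prm1 and Tnp1 gave 0.72, 0.94 and -0.41 in the probe sets used. Their other probe sets were at the floor on both arrays. The 4 endothelial markers summed to 1525.4 and 1725.8, and 2 erythroid ones to 4559.1 and 2788.5. The markers at the floor on both arrays were Insl3 of Leydig cells, Cnn1 of myoid cells, Tek of endothelium and Prm2 of spermatids, and none read 0. The part of these cells in the ratios of the ubiquitin genes was not tested, and in whole RNA fewer cells of a type and less RNA per cell cannot be told apart.

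The upstream sequences of 3 members are shown, since their values are among those the results turn on. Ube2q2 was higher in each of its probe sets, Usp13 was lower in each of its probe sets, and Usp26, an X-linked gene known for its expression in testis, read nearly the same on both arrays. They were chosen after their values were seen. Each is the 250 bases before the annotated start in the RefSeq promoter table of build GRCm38.p6, 5′ to 3′ on the gene's strand, with GC boxes (GGGCGG) and CCAAT boxes (CCAAT) on either strand in capitals. The Ube2q2 sequence lies at chr9:55149119-55149368 on the plus strand, before 1 of 2 annotated starts, that of Usp13 at chr3:32817376-32817625 on the plus strand, and that of Usp26 at chrX:51801234-51801483 on the minus strand.
Ube2q2: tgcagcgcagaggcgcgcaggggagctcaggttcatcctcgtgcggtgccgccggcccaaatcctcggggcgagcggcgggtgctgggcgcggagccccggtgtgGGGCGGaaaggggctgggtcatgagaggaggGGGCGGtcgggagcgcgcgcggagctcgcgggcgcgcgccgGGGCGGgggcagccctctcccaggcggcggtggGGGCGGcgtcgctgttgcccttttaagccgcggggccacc
Usp13: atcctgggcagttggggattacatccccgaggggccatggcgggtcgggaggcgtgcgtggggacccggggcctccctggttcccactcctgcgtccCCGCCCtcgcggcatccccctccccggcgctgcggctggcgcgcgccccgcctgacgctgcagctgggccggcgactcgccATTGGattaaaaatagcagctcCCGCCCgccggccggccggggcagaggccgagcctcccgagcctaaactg
Usp26: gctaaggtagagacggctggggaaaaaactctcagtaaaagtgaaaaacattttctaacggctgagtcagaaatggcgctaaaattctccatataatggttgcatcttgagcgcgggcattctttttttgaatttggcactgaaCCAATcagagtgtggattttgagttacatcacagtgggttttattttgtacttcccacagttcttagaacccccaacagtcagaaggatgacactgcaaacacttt

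The Ube2q2 stretch held 4 GC boxes and no CCAAT box, that of Usp13 held 2 GC boxes and 1 CCAAT box, and that of Usp26 held 1 CCAAT box and no GC box. The G and C content was 77.6%, 73.6% and 41.2%. The table held 75 promoters for 64 of the 82 genes. A GC box lay in 51 of these 75 (68.0%), against 50.5% of the 16016 promoters of genes on the chips and 32.7% of all 32851 promoters. A CCAAT box lay in 17 of the 75 (22.7%), against 34.8% and 33.8%. The median ratio of observed to expected CpG was 0.84 for the members, 0.64 for genes on the chips and 0.37 for all promoters. Of the 3 sequences shown, Usp26 had the lowest value, 0.47, which lies between the medians of all promoters and of genes on the chips. A match of such short letters is a description and not a bound site.

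Most of the ubiquitin genes differed little between the arrays. Of the 82 genes 76 exceeded the floor in WT, Null or both, 74 of them in both, and 6 were at the floor on both. In these 76 genes the median log2 ratio was 0.07, with the middle 50% between -0.11 and 0.29, beside a median of -0.01 over all 12435 genes above the floor. The ratio was above 0 in 46 of 76 genes (60.5%), where 48.5% of all genes were above 0. A difference of at least 2-fold was seen in 2 members, Nedd4l and Ube2w, both higher in Null, where 1.42% of all genes were that much higher, and in none of the members downward, where 1.64% of all genes were. At 1.5-fold, 4 members were higher (all genes 5.32%) and 1 was lower (all genes 6.35%). The median size of the ratio regardless of direction was 0.20 for the members and 0.21 for all genes.

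**Figure D1:**
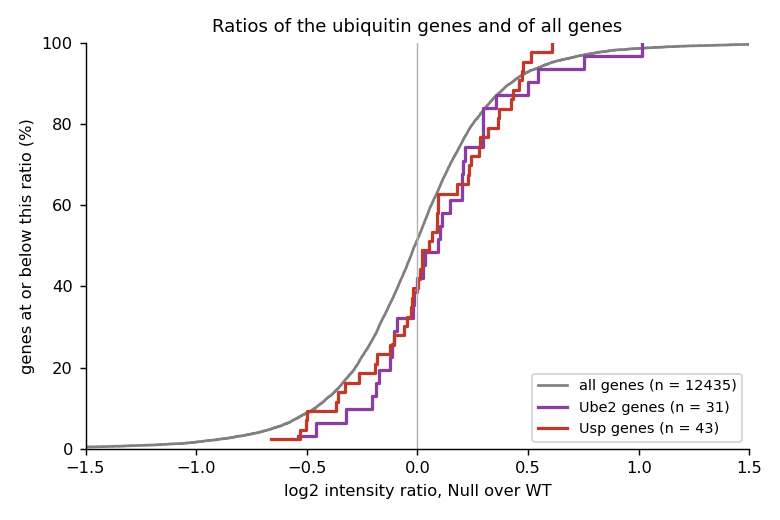
Cumulative share of genes (vertical axis, percent) at or below each log2 ratio of Null over WT (horizontal axis), for the 31 Ube2 and 43 Usp genes above the floor and for all 12435 genes above the floor, 1 probe set per gene. The Ube2 and Usp lines lie a little to the right of the line of all genes in the middle, at medians of 0.09 and 0.05 against -0.01, and end at 1.02 and 0.61.

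The medians were not the same on the 3 chips. For the 34 members represented on U74Av2 the median was 0.08, for the 18 on U74Bv2 0.22 and for the 24 on U74Cv2 -0.01, beside -0.01, -0.01 and -0.02 for all genes represented on these chips. When the ratios of all measured probe sets of a gene were averaged, the median of the members fell to 0.02. Over all 150 member probe sets above the floor it was 0.02 too, and 79 of the 150 were above 0, where 49.4% of all named probe sets were.

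**Figure D2:**
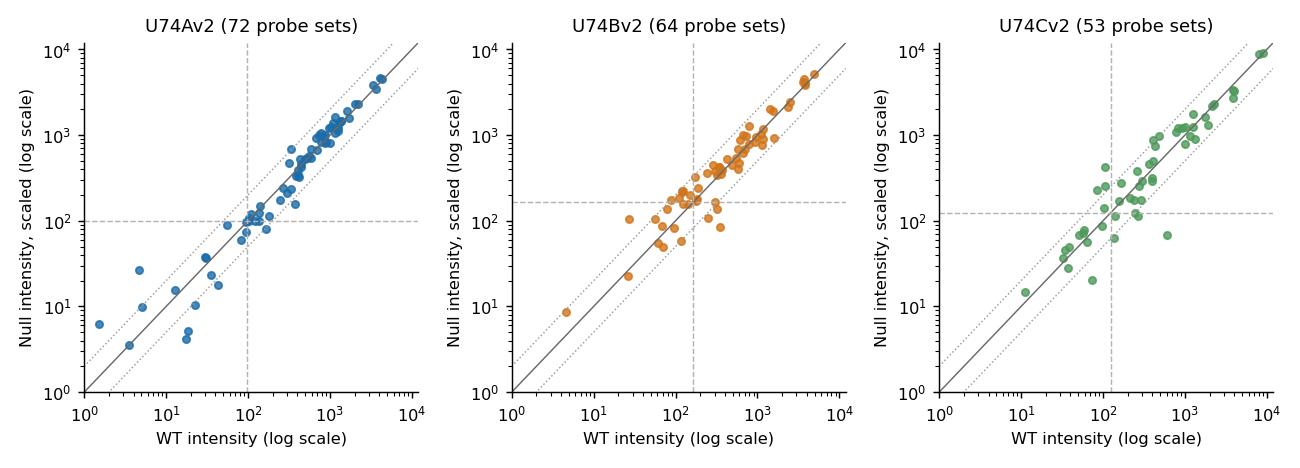
Intensity in WT (horizontal) and Null after scaling (vertical) of each of the 189 member probe sets, on logarithmic axes, 1 panel per chip with 72, 64 and 53 probe sets. The solid line is equality, the dotted lines are 2-fold, and the dashed lines are the floors of 98.3, 165.2 and 124.1, above which most points lie between the 2-fold lines.

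A 2-fold difference was reached upward by 5 of the 150 probe sets and downward by 4, where the shares over all named probe sets were 1.83% and 1.94%. On U74Cv2 the members had 4 upward and 2 downward, where 5.18% and 5.12% of named probe sets differed that much. On U74Av2 they had 1 each way, where the shares were 0.339% and 0.522%, and on U74Bv2 none upward and 1 downward, where they were 0.793% and 0.946%. The 9 probe sets belonged to 9 genes. For Ube2r2, Ube2k, Usp33, Ube2w and Nedd4l another probe set went the other way, for Nedd4l only at -0.05. Ube2h and Ube2d2a had another probe set of the same sign but smaller, at -0.02 and -0.13. In Ube2q2 and Usp13 all probe sets went the same way, the smallest at 0.50 and -0.36.

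The ligase Nedd4l, known for taking the epithelial sodium channel off the cell surface, had the highest ratio of all members. Its probe set of the highest level, on U74Av2, read 330.7 in WT and 689.8 in Null, a log2 ratio of 1.05 or 2.07-fold higher. This probe set has the suffix _f, which can mark sharing between related transcripts. A probe set of plain design on the same chip read 315.3 and 471.2, at 0.57. On U74Bv2 a further _f probe set read 240.5 and 364.5, at 0.59, and a plain one read 178.5 and 172.9, at -0.05. The last 2 probe sets, on U74Bv2 and U74Cv2, were at the floor on both arrays. Nedd4l was thus higher in Null in 3 of the 4 probe sets that measured it, and the size ran from -0.05 to 1.05. Its mean over the 4 was 0.54.

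Nedd4, the ligase that gave the family its name and a regulator of growth factor signalling, did not share that pattern. On U74Av2 it read 1356.4 in WT and 1472.3 in Null, at 0.11, and on U74Cv2 401.5 and 299.8, at -0.44. Its other probe set was at the floor on both arrays. The difference between the 2 ligases was not tested.

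Of the ligase relatives of Nedd4 and their adaptors, 22 genes were on the chips and 20 above the floor, with a median ratio of -0.00. The E6-AP gene Ube3a, the ligase lost in Angelman syndrome, was at least 2-fold higher, at 243.1 in WT and 607.8 in Null on U74Bv2, a log2 ratio of 1.32. Its probe set on U74Av2 gave 0.26, and a second one on U74Bv2 was at the floor in WT and gave a bound of 0.44. Ube3c was at least 2-fold lower, at 1436.5 and 679.2 on U74Bv2, a log2 ratio of -1.09, but its other probe set there gave 0.20. Ndfip1, a membrane adaptor that recruits and activates Nedd4 ligases, read 5377.1 and 5598.8, at 0.05, and the giant ligase Huwe1 read 2648.6 and 3273.3, at 0.30.

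Among the 33 Ube2 genes 31 were above the floor, with a median ratio of 0.09, 18 above 0 and 13 below. The range ran from -0.54 for Ube2d1 to 1.02 for Ube2w. Ube2w, an E2 that attaches ubiquitin to the amino end of proteins, read 482.2 in WT and 990.9 in Null on U74Cv2, 2.02-fold higher. That probe set also has the suffix _f. A second one on U74Cv2 read 102.1 and 143.0, a bound of 0.18, and the one on U74Av2 read 122.8 and 98.8, a bound of -0.32 in the other direction. So the direction of Ube2w rests on U74Cv2, and without that chip its ratio was -0.32.

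Ube2q2, a relative of the E2 Ube2q1 with a long amino-terminal part, was higher in Null in each of its probe sets. On U74Bv2 one read 1413.1 in WT and 2007.1 in Null, at 0.50, and another 606.0 and 873.6, at 0.52. On U74Cv2 it read 409.1 and 886.2, at 1.09, or 2.13-fold higher. The spread between probe sets was 0.24 at the level of the first. Ube2q2 had the largest mean over its probe sets of the 41 members with at least 2 measured, at 0.71. Its relative Ube2q1 read 3854.5 and 3824.3 in one probe set and 709.6 and 686.4 in another, at -0.02 and -0.05.

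Ube2j2, a tail-anchored E2 of the endoplasmic reticulum that works in the removal of misfolded proteins, was higher in Null as well. It read 165.0 and 282.3 on U74Cv2, at 0.75, and on U74Bv2 120.2 and 220.3 with WT at the floor, a bound of 0.41. Both probe sets are dim. Other enzymes of that pathway differed less. Ube2j1 read 8099.2 and 8895.2 on U74Cv2, at 0.11, and 1105.6 and 1031.0 on U74Bv2, at -0.11. Ube2g2 read 3898.8 and 3435.0 on U74Cv2, at -0.21, and 2379.0 and 2112.9 on U74Bv2, at -0.18, and Ube2g1 stood at 0.29 and 0.11.

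The E2s of ubiquitin chains linked through lysine 63, Ube2n with its inactive partners Ube2v1 and Ube2v2, had no 2-fold difference. Ube2n read 4052.4 and 4725.5 on U74Av2, at 0.21, and 359.2 and 356.8 on U74Bv2, at -0.01. On U74Cv2 it read 242.7 and 126.4, at -0.96. Null after scaling lay there at 124.4, barely above the floor of 124.1, and the spread at that level was 0.57. Ube2v1 gave 0.20 and 0.06 in its 2 probe sets and Ube2v2 gave -0.09.

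The RAD6 pair, which ubiquitinates histone H2B and the replication clamp, had no 2-fold difference either. Ube2b read 2467.6 and 2473.3 on U74Bv2, at -0.00, 893.4 and 826.4 on U74Av2, at -0.12, and 340.2 and 429.4 on U74Bv2, at 0.33. Ube2a read 137.3 and 122.5 near the floor of U74Av2, at -0.17.

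The E2s of the anaphase-promoting complex, Ube2c, which starts chains, and Ube2s, which extends them, had ratios above 0 that lay within the spread. Ube2s read 1377.3 and 1477.0 on U74Av2, at 0.09 where the spread was 0.15, and 369.4 and 466.8 on U74Cv2, at 0.31 where it was 0.44. Ube2c read 108.0 and 120.5, just above the floor, at 0.15 where it was 0.35. Ube2t, the E2 of the Fanconi anaemia repair pathway, read 1004.5 in WT and 809.0 in Null on U74Av2, a log2 ratio of -0.32, where the spread was 0.15. It had no second probe set.

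The Ube2d genes, general E2s that work with many ligases, are close relatives whose probe sets may share transcripts, so each value is uncertain. Ube2d1 had the lowest ratio of the Ube2 genes and read 1889.6 and 1321.4 on U74Cv2, at -0.54, from its only probe set, which has the suffix _i. Ube2d2a gave -0.13 on U74Av2 and, with Null at the floor, a bound of -1.10 on U74Cv2. Ube2d3 stood at 0.03, -0.19 and -0.04 and Ube2d2b at -0.19. The pseudogene Ube2d-ps gave 0.30 and a bound of -0.97 on the same chip.

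E2s of ubiquitin-like modifiers were covered by 2 genes. Ube2f, which passes on NEDD8, read 261.2 and 387.6 on U74Cv2, at 0.55 where the spread was 0.57. On U74Av2 it read 139.1 and 150.3, at 0.10 where the spread was 0.35. Ube2l6, the E2 of the interferon-induced modifier ISG15, was at the floor on both arrays, at 55.4 and 89.8, and so was Usp18, which removes ISG15, at 30.6 and 36.6.

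Several further E2s had probe sets that disagreed by more than the difference itself. Ube2h, the E2 of the CTLH ligase complex, read 688.0 and 682.5 in one probe set of U74Av2, at -0.02, and 373.0 and 156.4 in another, at -1.26. Ube2r2, a relative of Cdc34 that serves cullin ligases, read 3315.1 and 3833.8 on U74Av2, at 0.20, but 607.4 and 69.4 on U74Cv2, at least 4.90-fold lower. Ube2k, which builds chains linked through lysine 48, gave 0.30 and -0.22 on U74Av2, bounds of 1.79 and 0.88 on U74Cv2 and a bound of -0.58 on U74Bv2. Ube2o, a large enzyme that combines E2 and E3 activity, was more even, at 0.35 and 0.24.

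**Figure D3:**
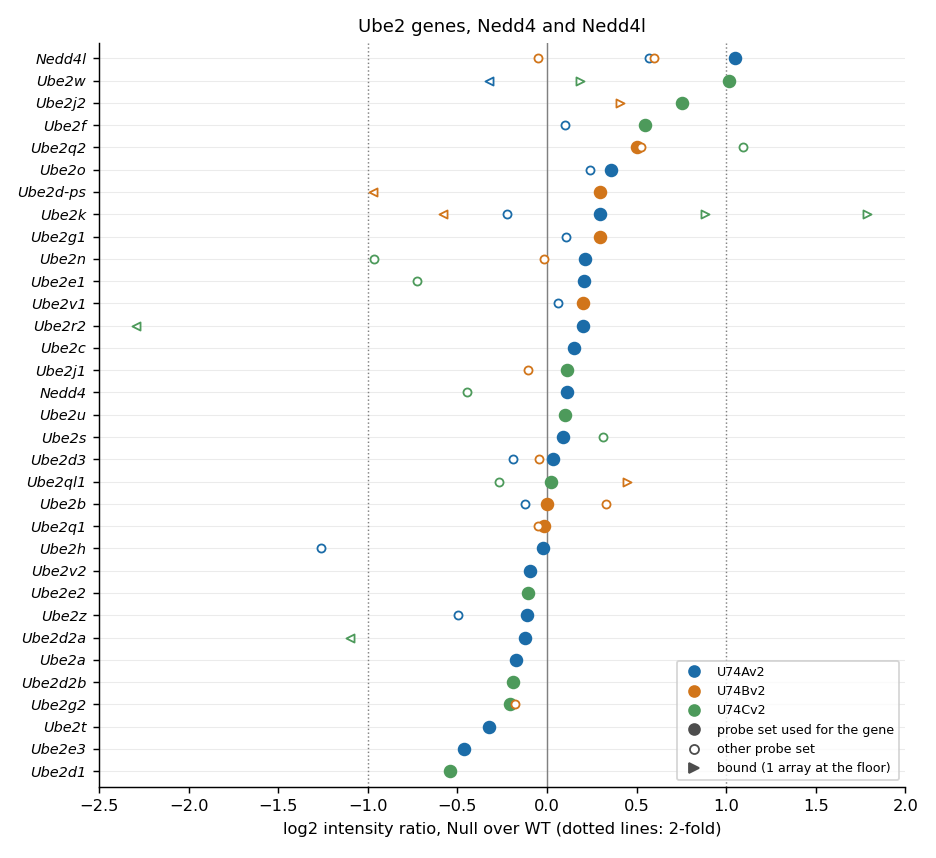
Log2 ratio of Null over WT (horizontal axis) of every probe set above the floor on at least 1 array for the 31 Ube2 genes, Nedd4 and Nedd4l, coloured by chip, with genes ordered by the probe set that represents them (large filled points). Small open points are other probe sets and triangles are bounds with 1 array at the floor, and only Nedd4l at 1.05 and Ube2w at 1.02 pass 2-fold with their representing probe set.

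Among the 47 Usp genes 43 were above the floor, with a median ratio of 0.05, 26 above 0 and 17 below. The range ran from -0.66 for Usp25 to 0.61 for Usp42, and none was 2-fold different. At the floor on both arrays were Usp17la, Usp17lc, Usp18 and Usp29. The first 2 are genes of a multicopy family of cytokine-inducible deubiquitinases, and their reads of 22.5 and 10.6 and of 12.8 and 15.8 lay far below the floor.

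Of the Usp genes higher in Null, Usp42 read 658.5 and 1005.6 on U74Bv2, at 0.61, and 304.8 and 385.5 in a second probe set, at 0.33. Usp24 gave 0.32 on U74Av2, from 967.8 and 1215.9, and 0.67 on U74Bv2, from 285.0 and 455.3. Usp3, which removes ubiquitin from histone H2A, gave 0.23, 0.52 and 0.43 in its 3 measured probe sets, all on U74Av2, and a bound of -0.16 on U74Cv2. These 3 genes were higher in each probe set that measured them on both arrays.

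Usp14, a deubiquitinase bound to the proteasome, read 726.2 and 1014.6 on U74Av2, at 0.47, and its other probe set was at the floor. Usp40 read 772.8 and 1119.6 on U74Cv2, at 0.51, and had no second probe set. Usp1, which acts on the Fanconi anaemia protein FANCD2 and the replication clamp, gave 0.46 on U74Av2 and -0.14 on U74Cv2. Usp11 read 1256.0 and 1777.9 on U74Cv2, at 0.48, but 1152.7 and 769.8 on U74Bv2, at -0.59. The sign of Usp11 and Usp1 therefore depended on the probe set.

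Of the Usp genes lower in Null, Usp13 was so in each of its 3 probe sets. It read 401.5 and 318.2 on U74Cv2, at -0.36, and 302.4 and 166.2 on U74Bv2, at -0.87. In the latter, Null after scaling lay at 165.6, barely above the floor of 165.2. The third, on U74Bv2, read 346.4 and 85.1, at least 2.10-fold lower. The spread at these low levels was 0.57 on U74Cv2 and 0.35 on U74Bv2. Usp54 stood at -0.26 and -0.43 on U74Cv2, within the spreads of 0.31 and 0.57 at these levels. Usp31 stood at -0.53 on U74Cv2, from 1317.1 and 926.2, and at -0.12 on U74Bv2.

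Usp46, which works with the WD repeat protein Wdr48, split by probe set. It read 3827.6 and 2751.9 on U74Cv2, at -0.50, and 1587.6 and 932.7 on U74Bv2, at -0.77, while 2 dimmer probe sets on U74Bv2 gave 0.09 and -0.02. Usp12, its closest relative, gave -0.19. Usp30, the deubiquitinase of the mitochondrial outer membrane that restrains mitophagy, gave -0.33 and 0.81 on U74Cv2 and -0.04 on U74Bv2. Usp25 had the lowest ratio of the Usp genes, at 181.9 and 115.6 on U74Av2, where the spread was 0.35, and on U74Bv2 a dim probe set gave a bound of 0.26 in the other direction.

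Several further deubiquitinases had bright probe sets or well-known roles. Usp22, the deubiquitinase of the SAGA coactivator, read 4938.6 and 5137.8 on U74Bv2, at 0.05, and its other probe sets gave -0.02 and 0.05. Usp26 read 9023.4 and 9173.3 on U74Cv2, at 0.00. Usp34 read 3684.8 and 4483.5 on U74Bv2, at 0.28, with -0.08 and 0.19 on U74Av2. Usp7, a regulator of p53 and its ligase Mdm2, gave 0.18, 0.35 and -0.16, and Usp9x, a large X-linked deubiquitinase, gave -0.18 and -0.05. Usp5, which takes apart free ubiquitin chains, gave 0.01 and -0.10, and Usp8, which acts on endosomal receptors, gave 0.02. Usp2 gave 0.09 and 0.04, and Usp19 gave 0.06.

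Usp6nl, whose name matches without its being a deubiquitinase, gave 0.24 and -0.51 in 2 probe sets of U74Bv2. Ube2cbp was at the floor on both arrays, at 38.8 and 49.8.

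**Figure D4:**
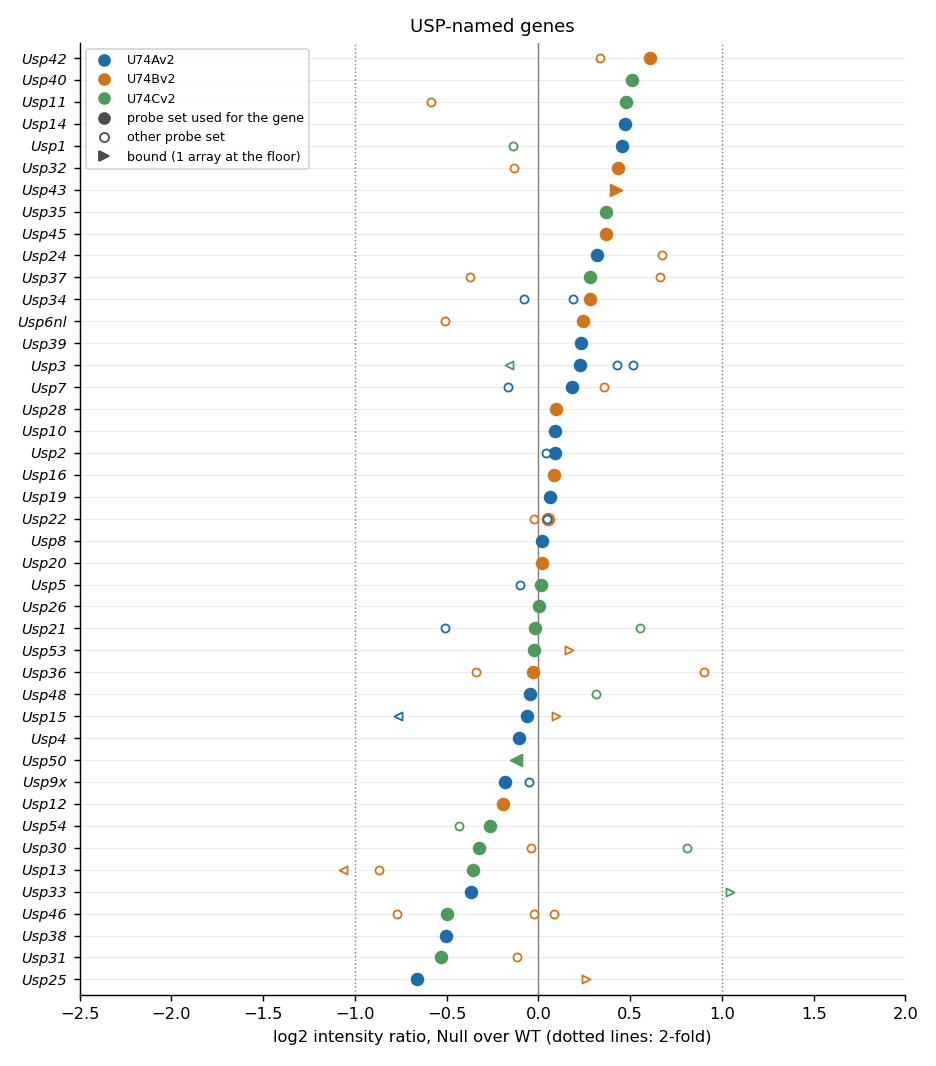
Log2 ratio of Null over WT (horizontal axis) of every probe set above the floor on at least 1 array for the 43 Usp genes, coloured by chip, with genes ordered by the probe set that represents them (large filled symbols). Small open symbols are other probe sets and triangles are bounds. The representing probe sets lie between -0.66 and 0.61, inside the 2-fold lines, and for Usp11, Usp30, Usp36 and Usp21 the other probe sets lie on opposite sides of 0 or far from the first.

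Repeated probe sets gave the best view of how firm these ratios are. Of the 41 members with at least 2 measured probe sets, all probe sets were above 0 in 10 and all below 0 in 8, where the shares over the 3997 such genes were 22.8% and 23.4%. No member had all its measured probe sets at least 1.5-fold higher or lower, which 0.225% of all such genes had upward and 0.400% downward. The 10 on the higher side were Ube2q2, Usp24, Usp42, Usp3, Ube2f, Ube2o, Ube2s, Ube2g1, Ube2v1 and Usp2, with means from 0.71 for Ube2q2 to 0.07 for Usp2. The 8 on the lower side were Ube2h, Usp13, Usp54, Usp31, Ube2z, Ube2g2, Usp9x and Ube2q1, with means from -0.64 for Ube2h to -0.03 for Ube2q1. The median range between the probe sets of a gene was 0.41 in the members and 0.40 over all such genes. These shares lie near the background, as does the range between probe sets.

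Upstream of the E2s, the modifiers and E1 enzymes that could be matched had medians below 0. Of the 16 ubiquitin and ubiquitin-like modifier genes looked for, 9 were matched and 8 were above the floor. No gene for ubiquitin itself was among the 9. The median was -0.22 and all 8 were below 0, none of them by 2-fold, where 48.5% of all genes were above 0. Of the 8 ratios 2, those of Ubd and Isg15, were bounds with Null at the floor. Other probe sets of the list lay above 0, with 0.24 for Urm1 on U74Av2 and 0.10 for Ufm1 on U74Bv2. Ubl5, a ubiquitin-like protein of splicing, read 9901.8 in WT and 6467.1 in Null on U74Av2, at -0.62, and its other probe set gave -0.45. Sumo3 read 5984.8 and 5987.7, at -0.01, and Nedd8 3187.2 and 3040.2, at -0.08. Of the 11 E1 genes looked for, 8 were matched, Uba1y but not Uba1 among them. Of these 8 genes 7 were below 0, with a median of -0.17 and none 2-fold different, beside the same 48.5% above 0 over all genes. Atg7, the E1-like enzyme of autophagy, gave -0.05 on U74Av2 but 1.39 on U74Bv2, from 169.3 and 444.2. Sae1, a subunit of the SUMO E1, gave -0.17 in the probe set that represents it and 0.20, -0.25 and 0.20 in others. Mocs3 gave -0.21, and Uba3, the catalytic subunit of the NEDD8 E1, gave -0.53 and -0.43. Nae1, also a subunit of the NEDD8 E1, was the only E1 gene above 0, at 1365.0 and 1670.8 on U74Av2, a ratio of 0.28.

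Downstream, 32 of 34 cullin ligase and anaphase-promoting complex genes were above the floor, with a median of -0.05, 15 above 0 and none 2-fold different. Vhl, a substrate receptor of a cullin ligase, read 7822.3 and 6950.2, at -0.18, and Elob, its elongin partner, read 14588.9 and 12813.6, at -0.20. Of 26 deubiquitinases outside the USP family 23 were above the floor, with a median of 0.04 and 14 above 0. Uchl1, a deubiquitinase used as a marker of spermatogonia, read 6045.1 and 6711.5, at 0.14, and Uchl3 read 11563.0 and 10549.1, at -0.16. Brcc3, the deubiquitinase of the BRCA1-A and BRISC complexes, was at least 2-fold lower, at 406.0 and 135.9 on U74Cv2, a log2 ratio of -1.60, but its other probe set, on U74Bv2, read 189.6 and 189.9.

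The 12 SUMO and NEDD8 proteases and SUMO ligases had a median of -0.08, with 4 above 0. Senp6, which trims SUMO chains, was at least 2-fold higher, at 794.7 and 1614.9 on U74Bv2, a log2 ratio of 1.02, with 0.61 on the same chip and 0.08 on U74Av2. Senp1 read 8974.8 and 8052.6, at -0.18, and Senp3 2723.1 and 3040.9, at 0.15. Over these 6 lists 2 genes were at least 2-fold higher and 2 at least 2-fold lower, where 1.42% and 1.64% of all genes were. Each of the 4 had another probe set with a smaller ratio or one in the other direction.

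**Figure D5:**
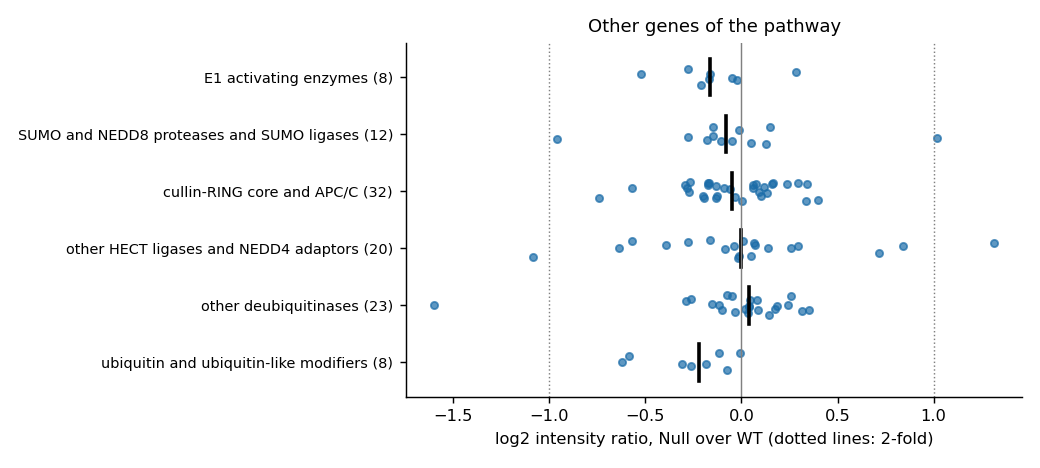
Log2 ratio of Null over WT (horizontal axis) of each gene above the floor (points, spread vertically for legibility) in the 6 lists of other pathway genes, with the median of each list as a black bar and the number of genes in brackets. The medians run from -0.22 for the modifiers, whose 8 points all lie below 0, to 0.04 for the other deubiquitinases.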

How the data were processed

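The intensities were used as the authors deposited them, linear and above 0. After trimming the lowest and highest 2%, both arrays of a chip had the same mean (500.3, 500.1 and 500.3), so they had been scaled. The software behind them is not given in the sources used here, and no detection calls were used. Control probe sets, 66 a chip, were removed. Null was divided by the median ratio over probe sets in the upper 50% of level (log2 shifts of 0.01, 0.00 and 0.02), the floor was set, and log2 ratios were taken.

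Symbols came from GEO's platform annotation, and the Entrez identifiers of all 189 probe sets matched RefSeq of GRCm38.p6 with no symbol changed. For the spread, differences between probe sets of a gene on a chip were taken, and their median size, scaled as for a normal distribution, was divided by the square root of 2, in 3 bands of level.

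Named were the ligases, members at least 2-fold different, the 6 largest ratios each way at or above the 75th percentile, and the 3 of highest level percentile per class. Of each pathway list the first 2 and any 2-fold different were named. Others named were chosen after their values were seen. Members and lists were chosen with earlier results of these data known. The steps were tested on simulated data with large changes in bright probe sets only, which does not tell how well small or dim differences are found. The tools were matplotlib 3.10.9, statsmodels 0.14.6, scipy 1.17.1, pandas 2.3.3 and numpy 2.4.6 under Python 3.11.15.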

Additional observations from a re-analysis of the deposited data

How the results depend on the processing

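The count of 2 members at least 2-fold higher was unchanged with the values as deposited, after loess on level, when the floor was moved to the 20th or 60th percentile and with no floor. It was 1 after quantile normalization, with the mean over all measured probe sets, without U74Cv2 and with U74Av2 only, and 0 with probe sets of plain design alone. It was 4 at 1.5-fold and 0 at 3-fold. The count of 0 members at least 2-fold lower became 1 under a floor at the 20th percentile, 2 with no floor and 1 at 1.5-fold. Ube2w turned to -0.32 without U74Cv2 and with U74Av2 only, Usp11 to -0.59 without U74Cv2, and Nedd4 to -0.44 with plain probe sets alone, which gave 0.57 for Nedd4l. With the mean over all measured probe sets Nedd4 was at -0.17, Ube2n at -0.26, Usp11 at -0.05, Usp30 at 0.15 and Usp6nl at -0.13. Usp34 was at -0.08 with U74Av2 only. The cause was not tested. The median of the members lay between 0.02 and 0.09 over all alternatives, that of the Usp genes between 0.02 and 0.07, and that of the Ube2 genes between -0.03 and 0.10. The Ube2 median was below 0 with the mean over all measured probe sets and with plain probe sets alone (-0.00). Leaving out the pseudogene, Usp6nl and Ube2cbp, an alternative chosen after seeing the data, gave 0.06, 0.06 and 0.04 for the members, the Ube2 genes and the Usp genes. Of 282 values of 28 named genes under 11 alternatives, 269 moved by less than the spread between probe sets. Part of this was fixed by the choice of alternatives. The floor at the 20th percentile, no floor and the omission of the pseudogene, Usp6nl and Ube2cbp changed none of these ratios. Among the ratios that remained, the floor at the 60th percentile changed only that of Ube2f. The 28 genes also leave out Ube2h, Ube2k, Ube2r2 and Usp13. No paired analysis was possible because each genotype had 1 array per chip, and for the same reason no array could be left out. Signal over background limits the dim genes, since those under the floor give no ratio.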
